A study of Mus musculus with 8 samples.

Results

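The libraries taken at the end of the second exposure of mouse embryonic stem cells to ML-792 (D10, replicates 1 and 2) were compared with those taken at the end of the first (D3, replicates 1 and 2), over all genes. These 4 libraries are the treated members of a series of 8. They were chosen by their labels, with no measured value used. All 8 came from R1, an established mouse embryonic stem (ES) cell line kept in serum with the cytokine LIF. ML-792 was applied for 48 h up to day 3 and again for 48 h up to day 10, at a dose given in the labels as 2.5 mM. The 2 D3 libraries therefore followed 1 exposure, and the 2 D10 libraries followed 2 exposures with an interval without inhibitor. The other 4 libraries are labelled control: 2 from D1, before any inhibitor, and 2 from D8, after the first exposure had ended and before the second began. D10 and D3 differ both by 7 days in culture and by the earlier exposure, which cannot be told apart, because no culture kept without ML-792 to these days is among the samples. D1 replicate 2 carries a time tag of D0 and was kept in D1 by its title. No label says that replicates were separate cultures, so a p-value here reflects only how far the sequenced samples scattered, which may be technical.

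SUMO is a small protein that is joined to other proteins by a cascade of an E1 activating enzyme (the Sae1 and Uba2 dimer), an E2 conjugating enzyme and E3 ligases. ML-792 blocks the E1, so SUMO is no longer passed on, while SUMO proteases keep removing it from its targets. SUMO is known to help keep silent chromatin silent in ES cells, and its loss raises genes of the 2-cell embryo such as Dux and the Zscan4 family. Primitive endoderm is the early embryonic lineage that forms next to the epiblast and lays down basement membrane, and ES cultures can hold cells with its markers.

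The 2 treated days differed by less than treated and control days did. The mean level of a gene at D10 followed that at D3 with r = 0.99 on the log2 scale, over 14566 genes with a mean of at least 1 CPM. CPM expresses a gene's reads relative to the library's total after TMM scaling, and genes are not independent replicates. The SD across genes of the log2 difference between a D10 and a D3 library was 0.407 to 0.518, against 0.366 between the D3 replicates and 0.466 between the D10 replicates. It was 0.373 between the D1 replicates and 0.563 between the D8 replicates. Between an ML-792 library and a control library of the same round it was 0.768 to 0.884 for D3 with D1 and 0.87 to 1.048 for D10 with D8. The libraries held 21040992 to 40835518 reads in genes. D8 replicate 2 stood apart from all other libraries in how gene levels related to the GC content of the gene. D10 replicate 2 stood apart only from the other treated libraries. Each gene's log2 level was taken relative to its mean over the 8 libraries. The rank correlation of this deviation with GC content over 12690 coding genes was 0.03 in D10 replicate 2, against -0.378 in D10 replicate 1. It was -0.342 and -0.314 in the D3 libraries and -0.118 and 0.108 in the D1 libraries. D8 replicates 1 and 2 stood at 0.095 and 0.59. The D10 to D3 difference itself had a rank correlation of 0.186 with GC content, and medians corrected for GC content and length are given beside those of the gene groups.

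No gene was called different between D10 and D3 by the main test. This was edgeR's quasi-likelihood test with the 4 groups as its terms, 2-sided, with Benjamini-Hochberg adjustment over 19173 genes and a threshold of 0.05. It called 0 genes (0%), and the smallest adjusted p was 0.332. At an unadjusted p under 0.05 there were 1073 genes (5.6%), of which 611 were higher at D10 (3.19%) and 462 lower (2.41%). DESeq2, run as an alternative, called 73 genes (0.381%), 55 of them higher at D10 (0.287%) and 18 lower (0.0939%). Both D10 values lay above both D3 values for 3440 genes (17.9%) and below for 3211 (16.7%). With a fitted change of at least 2-fold added, these counts were 437 (2.28%) and 433 (2.26%). The 95% interval of the log2 fold change lay within a 2-fold change in either direction for 11076 genes (57.77%) and reached beyond it for 8097 (42.23%). Among the latter, the interval lay wholly above a 2-fold higher level for 25 genes and wholly below a 2-fold lower level for 2. For the rest of them a 2-fold difference could not be resolved with 2 libraries a side. The same test called 2496 genes (13%) for D3 against D1 and 3244 (16.9%) for D10 against D8, comparisons which share libraries with this one.

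**Figure D1:**
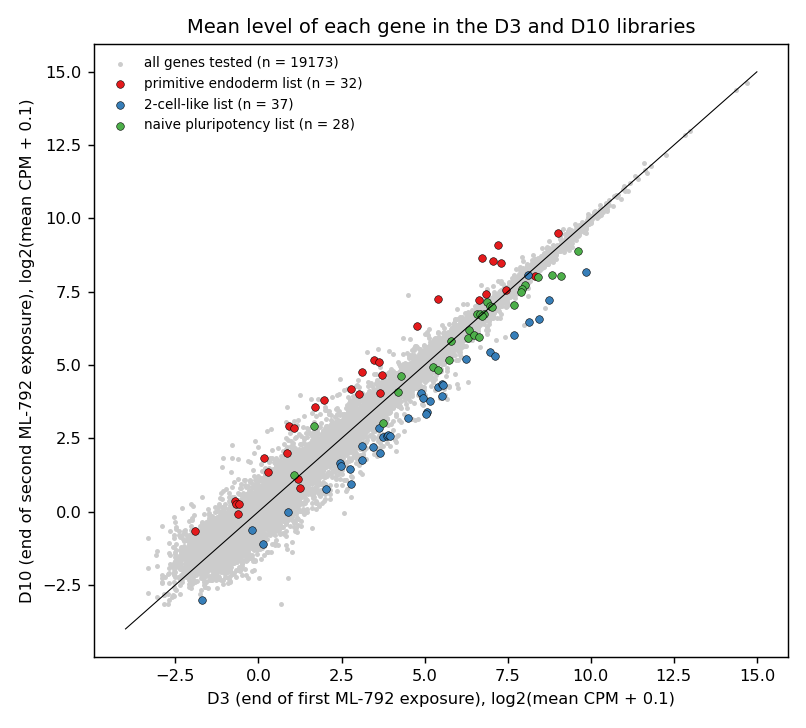
Mean level of each tested gene at D3 (horizontal axis) and D10 (vertical axis), both as log2(mean CPM + 0.1), with 1 point a gene and the line of equal levels. Primitive endoderm genes (red) lie mostly above the line, and 2-cell-like genes (blue) and many naive pluripotency genes (green) below it, while the grey points of all 19173 genes follow it.

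Genes of primitive and extraembryonic endoderm were mostly higher at D10. Of 35 listed genes 32 could be tested. Both D10 values lay above both D3 values for 27 of these and below for 1, beside 17.9% and 16.7% of all genes. The 4 with overlapping groups were Rhox5, Nid2, Hnf4a and Foxa1, and 3 listed genes fell under the filter on low counts. The median log2 fold change of the list was 1.19 (1.1 after correction for GC content and length), against 0.003 over all genes tested. At an unadjusted p under 0.05, 20 members were higher and 1, Sall4, was lower. None passed the adjusted test by edgeR, and DESeq2 called 12 of them. The summed level of the list was 1814 and 2049 CPM at D3 and 3093 and 4204 CPM at D10. In bulk RNA, more cells of a type and more RNA per cell cannot be told apart.

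The transcription factors of the lineage had low levels in CPM in all 4 libraries. Gata6, a GATA factor that specifies primitive endoderm, stood at 5.85 and 7.87 CPM at D3 and at 16.4 and 19.6 CPM at D10. The groups did not overlap, and the log2 fold change was 1.39 ± 0.24 (SE; adjusted p = 0.518 by edgeR). Gata4, which acts after Gata6, was at 3.41 and 4.25 CPM at D3 and at 10.7 and 16.9 CPM at D10. Sox17, an SRY-box factor of endoderm, was at 2.32 and 3.94 CPM and then at 9.69 and 13.6 CPM, a log2 difference of 1.89 ± 0.39 (adjusted p = 0.65 by edgeR). Every D10 value of these 3 factors was above every D3 value, with D10 replicate 2 the highest of the 4 each time. Foxa2, shared with the definitive endoderm, was at 1.1 and 0.94 CPM at D3 and at 2.43 and 4.42 CPM at D10. Hnf4a and Foxa1, factors of visceral endoderm and of later endoderm, gave overlapping groups, with log2 differences of -0.1 and -0.47.

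Of the receptors, Pdgfra, a surface marker of primitive endoderm that binds platelet-derived growth factor, was at 10.2 and 14.3 CPM at D3 and at 29.0 and 38.9 CPM at D10. The log2 fold change was 1.47 ± 0.24 (adjusted p = 0.479 by edgeR), with no overlap. Fgfr2, a receptor for fibroblast growth factors, gave a smaller difference, at 12.6 and 12.3 CPM at D3 and 14.3 and 18.4 CPM at D10. Pth1r, the receptor of parathyroid hormone-related protein in parietal endoderm, was at 1.52 and 2.09 CPM at D3 and at 5.07 and 9.72 CPM at D10. Its log2 difference of 2.04 was the highest of the list. The endocytic receptor Cubn was at 17.4 and 36.9 CPM at D3 and at 101 and 59.6 CPM at D10, and its adaptor Dab2 at 6.06 and 11.1 CPM and then at 32.6 and 21.8 CPM. In these 2 genes D10 replicate 1 was the higher library, unlike in the factors and matrix genes.

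The list holds 5 laminin and type IV collagen genes, which build the basement membrane that this endoderm secretes. None was called by edgeR. DESeq2 called Lama1, Col4a1, Lamb1 and Col4a2, with an adjusted p from 3.23e-07 for Lama1 to 0.000608 for Col4a2, but not Lamc1. Lama1, the laminin alpha 1 chain, lies at chr17:67697259-67822647 (GRCm38) and had the smallest p among genes higher at D10. It stood at 89.0 and 121 CPM at D3 and at 314 and 487 CPM at D10, with a log2 fold change of 1.93 ± 0.28 (SE), an unadjusted p of 9.2e-05 and an adjusted p of 0.479 by edgeR. Its partner chain Lamb1 was at 125 and 143 CPM at D3 and at 297 and 456 CPM at D10. For both chains the groups did not overlap, and Lamc1, the gamma 1 chain, differed less, by 0.5 ± 0.14. Col4a1, a type IV collagen chain, was at 124 and 171 CPM at D3 and at 387 and 712 CPM at D10. Col4a2, the chain it pairs with, was at 35.2 and 48.9 CPM at D3 and at 107 and 201 CPM at D10. The log2 fold changes of the 2 collagen genes were 1.89 ± 0.39 and 1.87 ± 0.41, and in each D10 replicate 2 was the highest of the 4 treated libraries. Nidogen 2 (Nid2) gave overlapping groups, with a log2 difference of 0.12.

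Col4a1 and Col4a2 lie head to head on chromosome 8, and their promoter windows overlap, so these are shown as an example of neighbours with like differences. They were chosen after the values were seen. Each window runs from 250 bases before to 50 after the gene's start, from RefSeq on GRCm38.p6, written 5′ to 3′ on the gene's own strand. Col4a1 is on the minus strand (chr8:11312777-11313076) and Col4a2 on the plus strand (chr8:11312555-11312854). Capitals mark the 78 bases that both windows hold, read on opposite strands.
Col4a1: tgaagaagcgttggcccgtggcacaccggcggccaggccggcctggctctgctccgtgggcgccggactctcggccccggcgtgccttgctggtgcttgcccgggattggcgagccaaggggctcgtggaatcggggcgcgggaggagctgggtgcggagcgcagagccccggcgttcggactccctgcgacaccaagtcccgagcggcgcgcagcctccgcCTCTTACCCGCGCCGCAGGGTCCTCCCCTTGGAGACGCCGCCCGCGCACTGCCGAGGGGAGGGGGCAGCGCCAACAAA
Col4a2: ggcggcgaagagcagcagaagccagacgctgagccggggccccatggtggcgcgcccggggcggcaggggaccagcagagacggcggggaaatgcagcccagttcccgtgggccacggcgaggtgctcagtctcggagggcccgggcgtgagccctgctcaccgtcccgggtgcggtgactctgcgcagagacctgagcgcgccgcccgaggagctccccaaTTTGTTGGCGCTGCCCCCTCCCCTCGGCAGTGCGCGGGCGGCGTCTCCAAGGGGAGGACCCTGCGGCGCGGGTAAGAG
The windows hold 37 and 33 CpG dinucleotides, against a median of 7 over all such windows, and their GC content was 74% and 73.7%, against 52.7%. Neither window holds the GATA words AGATAA or TGATAA, nor the SOX words ACAATG or ACAAAG, on either strand. A window was found for 21 of the 32 tested list members. The GATA words occurred in 4 of their 35 windows (11.4%) and in 18.6% of all 32851 windows, and the SOX words in 6 of 35 (17.1%) and in 28.6%. A match is a description of letters and not of binding.

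**Figure D2:**
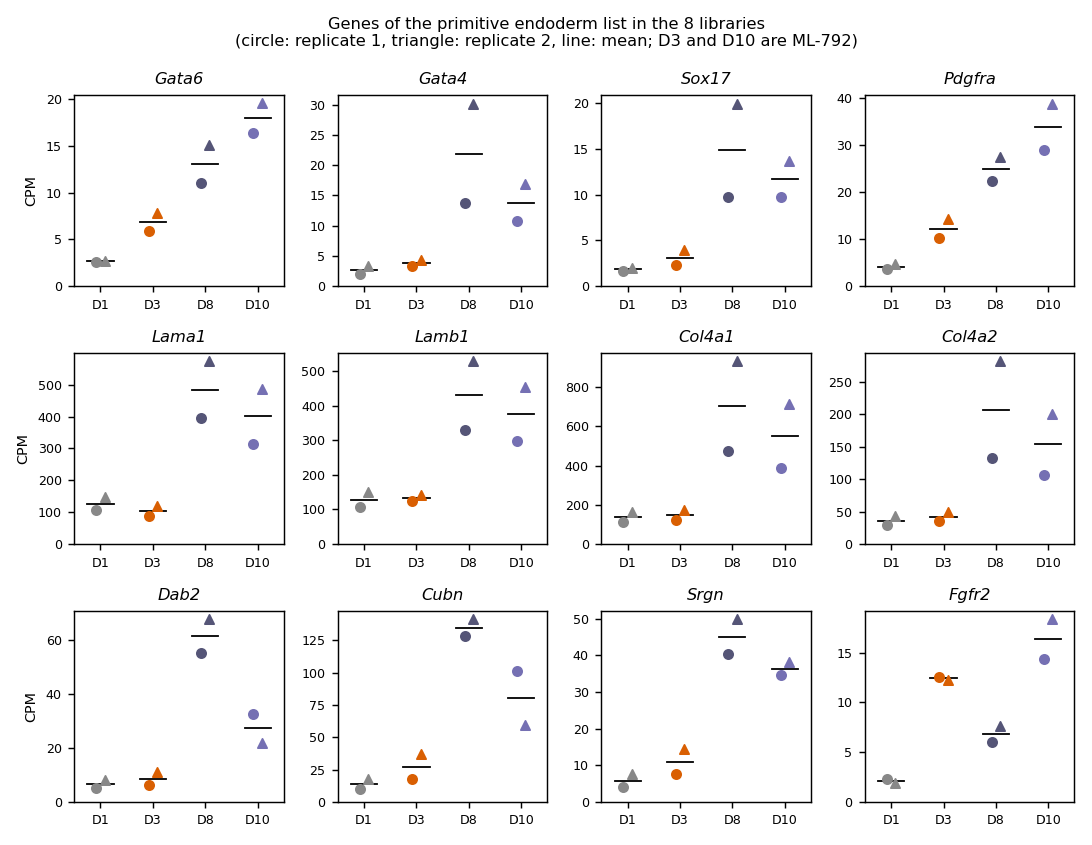
Level in CPM (vertical axis, from 0) of 12 genes of the primitive endoderm list in each of the 8 libraries, grouped by day, with circles for replicate 1, triangles for replicate 2 and a line at the mean. The D10 points of Lama1, at 314 and 487 CPM, lie above the D3 points at 89.0 and 121 CPM, and those of Fgfr2 lie only slightly above.

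Genes of the 2-cell-like state were lower at D10 than at D3, and this rested in large part on D3 replicate 1. The list holds 47 genes, of which 37 were tested. Both D10 values lay below both D3 values for 27 and above for 0, beside 16.7% and 17.9% of all genes. Every one of the 37 had a negative log2 fold change, with a median of -1.31 (-1.28 after correction for GC content and length), and 25 were lower at an unadjusted p under 0.05. None was called by edgeR, and DESeq2 called 2. The summed level was 4909 CPM in D3 replicate 1 and 1743 CPM in D3 replicate 2, against 1274 and 1297 CPM at D10. Without D3 replicate 1 the median was -0.46, and 28 of the 37 still had both D10 values below the remaining D3 value, beside 28.9% of all genes.

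Zscan4c, a telomere and genome maintenance gene expressed in bursts in ES cells, lies at chr7:11005745-11010547. It was at 641 and 224 CPM at D3 and at 143 and 156 CPM at D10. The D3 replicates lay far apart, the D10 replicates were close together, and the groups did not overlap. The log2 fold change was -1.53 ± 0.46 (SE; unadjusted p = 0.00903, adjusted p = 0.71 by edgeR). Zscan4d had the same shape, at 1453 and 405 CPM at D3 and at 308 and 274 CPM at D10. Duxf3, the Dux factor that drives the 2-cell programme, was at 7.41 and 3.55 CPM at D3 and at 2.23 and 3.47 CPM at D10, so D3 replicate 2 and D10 replicate 2 were nearly equal. Zfp352, a zinc finger gene of the same programme, gave overlapping groups, at 12.2 and 5.15 CPM at D3 and 3.4 and 5.8 CPM at D10.

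All 4 treated libraries were above all 4 control libraries for these genes. Zscan4c was at 24.4 and 12.7 CPM at D1 and at 2.09 and 3.35 CPM at D8. Its log2 fold change was 4.55 ± 0.53 for D3 against D1 (adjusted p = 0.00256 by edgeR) and 5.78 ± 0.57 for D10 against D8 (adjusted p = 0.00107). The level at D10 was thus lower than at D3 while the fold over the control day before it was larger, with D8 lower than D1. The median of the list was 3.34 for D3 against D1, 4.28 for D10 against D8 and -2.18 for D8 against D1. For Zscan4c the difference between the 2 rounds was 1.23 ± 0.68 (adjusted p = 1 by edgeR). The Zscan4, Usp17l, Tdpoz and Dux genes are near-identical copies. How reads that match several copies were counted is not given in the sources used here. The values of single copies are therefore uncertain, and the counts of list members do not stand for as many separate observations.

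Several naive pluripotency genes were lower at D10, by less than 2-fold except for Fbxo15. Of 28 listed genes, all tested, 15 had both D10 values below both D3 values and 3 above, beside 16.7% and 17.9% of all genes. The median log2 fold change was -0.32 (-0.35 after correction for GC content and length), and 10 were lower at an unadjusted p under 0.05. Without D3 replicate 2 the median was -0.16. The log2 fold change was negative for 20 members and positive for 8, from -1.06 to 1.31, and 0 were higher at an unadjusted p under 0.05. Dppa3, also on the list, was among those higher at D10, with a log2 fold change of 1.35 in the fit with no low-count filter. Zfp42, known as Rex1 and a classic marker of naive cells, was at 770 and 786 CPM at D3 and at 466 and 481 CPM at D10. The replicates of a day were close to each other, and the log2 fold change was -0.72 ± 0.16 (adjusted p = 0.683 by edgeR). Tfcp2l1, a naive factor downstream of LIF, was at 190 and 223 CPM at D3 and at 128 and 139 CPM at D10, a log2 fold change of -0.63 ± 0.13 (adjusted p = 0.683 by edgeR). Nanog was at 485 and 420 CPM at D3 and at 194 and 347 CPM at D10, so D10 replicate 1 was the low library, and the log2 difference was -0.74 ± 0.24 (adjusted p = 0.719 by edgeR). Klf4 and Fgf4 differed by -0.49 ± 0.16 and -0.59 ± 0.16, and Prdm14, a repressor of differentiation, by -0.74 ± 0.28. Fbxo15, an F-box gene that Oct4 is known to activate, was at 683 and 418 CPM at D3 and at 211 and 317 CPM at D10, a log2 difference of -1.06 ± 0.25 (adjusted p = 0.683 by edgeR, 0.0245 by DESeq2). The LIF receptor genes Lifr and Il6st and the mediator Stat3 differed by -0.04, 0.16 and 0.06.

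The general pluripotency genes had a median near 0. Pou5f1, which encodes Oct4, was at 823 and 959 CPM at D3 and at 796 and 758 CPM at D10, a log2 difference of -0.2 ± 0.15. Sox2 was at 298 and 400 CPM at D3 and at 389 and 363 CPM at D10, with overlapping groups. The 29 tested members of that list had a median of -0.03 (-0.09 corrected), with 3 above and 4 below without overlap, beside 17.9% and 16.7% of all genes. These defining markers of ES cells were at 298 CPM or more in all 4 libraries.

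**Figure D3:**
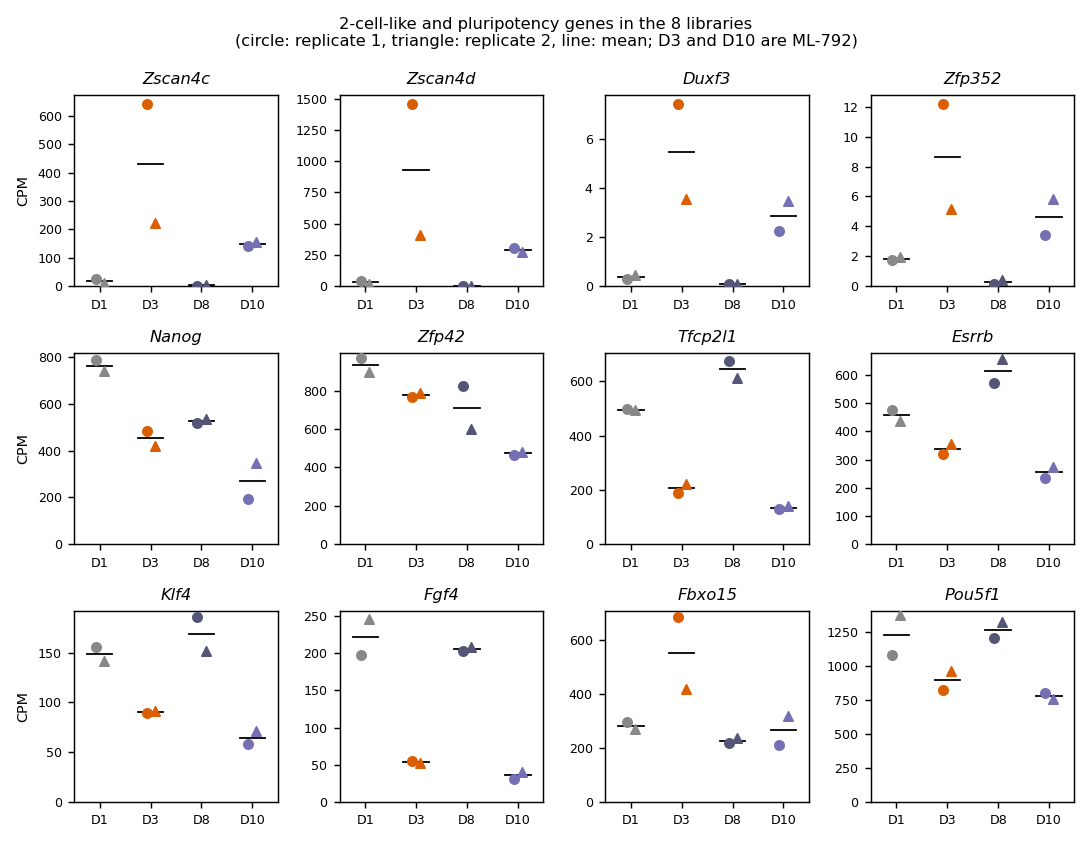
Level in CPM (vertical axis, from 0) of 12 genes of the 2-cell-like, naive and general pluripotency lists in the 8 libraries by day, with circles for replicate 1, triangles for replicate 2 and a line at the mean. D3 replicate 1 stands far above the other libraries for Zscan4c, at 641 CPM, whereas the replicates of Zfp42 lie close together at D3 and at D10.

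By smallest p, the genes higher at D10 were Lama1, Habp2, Nrg1, Spink1, Plaur and Pdgfra. None of them was called by edgeR. DESeq2 called all of them, with an adjusted p from 3.23e-07 for Lama1 to 0.000267 for Habp2. Habp2, a hyaluronan-binding serine protease (chr19:56287137-56320822), was at 0.51 and 0.59 CPM at D3 and at 3.57 and 3.26 CPM at D10. Nrg1, an EGF-family ligand of ErbB receptors (chr8:31814551-32884029), was at 5.77 and 6.69 CPM at D3 and at 17.8 and 18.1 CPM at D10. Plaur, the urokinase receptor (chr7:24462484-24475968), was at 14.3 and 18.7 CPM at D3 and at 40.9 and 42.5 CPM at D10. In each the replicates were close and the groups were well apart, with log2 fold changes of 2.62 ± 0.39, 1.52 ± 0.24 and 1.34 ± 0.21 and an adjusted p of 0.479 by edgeR for each. Spink1, a trypsin inhibitor, was at 2.82 and 3.07 CPM at D3 and at 11.8 and 8.63 CPM at D10.

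By the same rule the genes lower at D10 were Mep1b, Inhbb, Tfcp2l1, Zfp42, Hal and Ticrr. Mep1b, the meprin beta metalloprotease (chr18:21061923-21100199), was at 97.2 and 95.5 CPM at D3 and at 58.7 and 61.5 CPM at D10, a log2 fold change of -0.68 ± 0.13 (adjusted p = 0.539 by edgeR). It stood at 5.45 and 6.09 CPM at D1 and at 4.65 and 4.12 CPM at D8, so every treated library was far above every control library. Inhbb, a subunit of activin B and inhibin B (chr1:119415465-119422248), was at 30.5 and 48.9 CPM at D3 and at 17.99 and 17.5 CPM at D10. Its log2 fold change was -1.16 ± 0.23 (adjusted p = 0.539 by edgeR), and it was at 149 and 117 CPM at D1 and 101 and 85.8 CPM at D8. Hal, which breaks down histidine, differed by -1.13 ± 0.26, and Ticrr, a factor that starts DNA replication, by -0.61 ± 0.14.

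The difference between the control days D8 and D1, which spans the same interval and shares no library with D10 against D3, was set beside these values. Both comparisons took each gene's spread from the same fit of all 8 libraries. A gene with close replicates was thus favoured in both, which the shares of all genes do not allow for. The overlaps of calls and of small p given here are therefore partly built in. D8 against D1 gave 34 calls (0.177%), 27 higher (0.141%) and 7 lower (0.0365%). That count was 418 with DESeq2, 339 without D8 replicate 1, 0 without D8 replicate 2, D10 replicate 1 or either D1 library, and 4 to 12 without each of the other libraries in turn. Of the 27 genes higher, 27 had both D10 values above both D3 values, and of the 7 lower, 7 had both below, beside 17.9% and 16.7% of all genes. At an unadjusted p under 0.05 for D10 against D3, these were 24 of 27 (88.89%) and 5 of 7 (71.43%). Of the 611 genes higher at D10 at an unadjusted p under 0.05, 298 (48.77%) were also among the 1410 higher at D8 (7.35% of all genes), of which they were 21.13%. Of the 462 lower, 200 (43.29%) were among the 901 lower at D8 (4.7% of all genes), of which they were 22.2%. Genes in opposite directions numbered 6 and 4. Across 14566 genes of at least 1 CPM, the fold changes of the 2 comparisons had r = 0.622 and a rank correlation of 0.474, which describes genes and not replicates. With all 19173 genes r was 0.444, and 0.417 after the GC and length correction. Taken between single libraries of at least 1 CPM, r was 0.461 and 0.579 when the same replicate number was used on both sides and 0.287 and 0.356 when the numbers were crossed.

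The primitive endoderm genes were among those with higher levels on both later days. The median of the list was 2.01 for D8 against D1, with 8 members called higher. It was 0.33 for D3 against D1 and -0.35 for D10 against D8. Lama1 was at 106 and 148 CPM at D1 and at 395 and 575 CPM at D8, and its log2 fold change of 1.93 was the same for D8 against D1 as for D10 against D3. Dab2 was at 55.3 and 67.6 CPM at D8 and Cubn at 129 and 141 CPM, above their D10 values. Pdgfra went from 3.63 and 4.63 CPM at D1 to 22.5 and 27.5 CPM at D8, a log2 fold change of 2.59 ± 0.26 (adjusted p = 0.0412 by edgeR). Its D10 to D3 difference was smaller by 1.12 ± 0.34 (unadjusted p = 0.0103, adjusted p = 1 by edgeR).

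The naive genes went both ways between the control days. Their median was 0.1 for D8 against D1, with 11 of 28 above and 8 below without overlap, beside 21.6% and 20.3% of all genes. Zfp42 and Nanog were lower on both later days, with log2 differences of -0.39 ± 0.16 and -0.54 ± 0.24 for D8 against D1. Tfcp2l1 was at 498 and 494 CPM at D1 and at 677 and 613 CPM at D8, a log2 difference of 0.38 ± 0.13, against the -0.63 between the treated days. The difference between these differences was -1.01 ± 0.19 (unadjusted p = 0.000502, adjusted p = 1 by edgeR). Over all genes, the test of whether D10 minus D3 differed from D8 minus D1 called 0 genes by edgeR (0%). At an unadjusted p under 0.05 there were 575 (3%), and DESeq2 called 3.

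Other signalling and lineage lists had smaller medians. Of 19 genes read out by FGF signalling, 10 were above and 3 below without overlap, beside 17.9% and 16.7% of all genes, with a median of 0.29 (0.26 corrected). Dusp6, a phosphatase that dampens ERK, was at 80.7 and 75.4 CPM at D3 and at 128 and 144 CPM at D10, a log2 fold change of 0.8 ± 0.15 (adjusted p = 0.539 by edgeR). Fosl1, an AP-1 factor, was at 2.36 and 1.25 CPM and then at 5.15 and 2.8 CPM. In the list of matrix and adhesion genes, which shares Lama1, Lamb1 and Lamc1 with the endoderm list, 21 of 45 were above and 3 below, against the same shares of all genes, with a median of 0.23 (0.15 corrected). Itga3, an integrin chain that binds laminin, was at 34.8 and 28.5 CPM at D3 and at 48.6 and 53.1 CPM at D10. Cdh2, or N-cadherin, was at 2.15 and 2.79 CPM and then at 4.66 and 6.39 CPM.

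Trophoblast genes had a median of 0.41 (0.34 corrected), with 12 of 24 above and 1 below without overlap, beside 17.9% and 16.7% of all genes. The summed level was 283 and 250 CPM at D3 and 324 and 564 CPM at D10, so D10 replicate 2 was the high library. Krt8, a keratin of simple epithelia, was at 11.2 and 12.9 CPM at D3 and at 21.4 and 72.0 CPM at D10, and its partner Krt18 was at 9.39 and 9.54 CPM and then at 17.5 and 69.5 CPM. Both also stood high in D8 replicate 2, at 123 and 117 CPM. By GC content D8 replicate 2 stood apart from all other libraries, and D10 replicate 2 from the other treated libraries. The part of that in the keratin values was not tested. Cdx2, a factor of trophectoderm and of the posterior embryo, was at 0.34 and 0.35 CPM at D3 and at 0.89 and 1.33 CPM at D10. Against those same shares, the primitive streak and mesoderm list had 9 of 22 above and 2 below, with a median of 0.35 (0.27 corrected). The formative and primed epiblast list had 7 of 21 above and 3 below, with a median of 0.09 (0.03 corrected).

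The integrated stress and unfolded protein list had a median of 0.19 (0.14 corrected), with 12 of 32 above and 4 below, beside 17.9% and 16.7% of all genes. Hspa5, the chaperone BiP, was at 499 and 596 CPM at D3 and at 736 and 689 CPM at D10, and Edem1, which clears misfolded proteins, was at 69.4 and 68.0 CPM and then at 95.2 and 95.4 CPM. Germline genes had a median of -0.15 (-0.19 corrected), with 4 of 42 above and 10 below against the same shares. Dazl, an RNA-binding protein of germ cells, was at 99.2 and 139 CPM at D3 and at 70.4 and 76.3 CPM at D10. The lists of p53 targets, cell cycle, oxidative phosphorylation and replication-dependent histone genes had medians of 0.07, -0.02, -0.01 and 0.08, or 0.05, -0.06, -0.03 and 0.02 corrected. Of the fibroblast markers 10 were tested, and all 10 overlapped between the days, as did 12522 of all 19173 genes. The list median was 0.16 (0.06 corrected), and 8 members had a positive log2 fold change. Their summed level was 69.8 and 61.2 CPM at D3 and 59.5 and 84.6 CPM at D10. The 10 blood and endothelial markers tested had 2 above and 2 below against the same shares, with sums of 122 and 151 CPM at D3 and 114 and 151 CPM at D10.

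**Figure D4:**
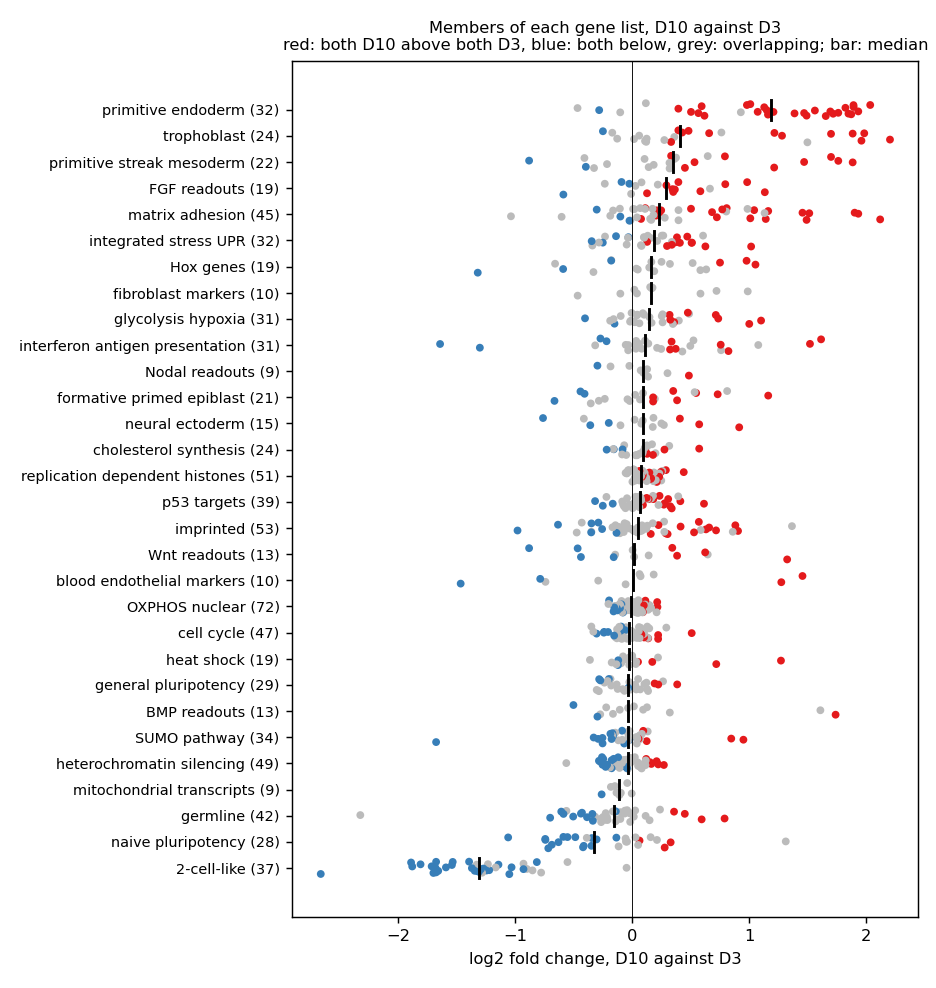
Log2 fold change of D10 against D3 (horizontal axis) for each tested member of 30 gene lists (rows, with the number tested), ordered by the list median (bar). Red points have both D10 values above both D3 values, blue points both below, and grey points overlap. The primitive endoderm row has the highest median, 1.19, and the 2-cell-like row the lowest, -1.31.

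The E1 genes of the SUMO machinery gave overlapping groups. Uba2, a subunit of the E1 that ML-792 inhibits, was at 641 and 732 CPM at D3 and at 613 and 653 CPM at D10, and Sae1 was at 398 and 364 CPM and then at 372 and 412 CPM. The log2 difference was -0.117 (95% interval -0.402 to 0.168) for Uba2 and 0.041 (95% interval -0.308 to 0.39) for Sae1. Of the 34 tested SUMO pathway genes 5 were above and 12 below, beside 17.9% and 16.7% of all genes, with a median of -0.03 (-0.06 corrected) and a range of -1.68 to 0.95. Sp110, a nuclear body protein that is also on the 2-cell-like list, was at 15.8 and 9.4 CPM at D3 and at 2.63 and 5.16 CPM at D10, the lowest log2 difference of the list (adjusted p = 0.683 by edgeR, 0.0184 by DESeq2). Senp7, a protease that trims SUMO chains, was at 7.24 and 5.99 CPM at D3 and at 13.8 and 10.0 CPM at D10. The 49 heterochromatin and silencing genes had a median of -0.04 (also -0.04 corrected), with 6 above and 13 below against the same shares. Atf7ip, a partner of the H3K9 methyltransferase Setdb1, was at 216 and 231 CPM at D3 and at 280 and 236 CPM at D10, against 50.8 to 68.8 CPM in the 4 control libraries. Tgm2, a transglutaminase, was at 2.44 and 2.72 CPM at D3 and at 2.35 and 4.33 CPM at D10, against 26.01 to 71.5 CPM in the controls. These 2 genes separated treated from control libraries on both days, and their D10 to D3 differences were 0.21 ± 0.17 and 0.4 ± 0.4 (adjusted p = 1 by edgeR for both).

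By chromosome, genes on chromosomes 6 and 11 had the highest median log2 fold changes, which were small. The difference on chromosome 6 was mostly in D10 replicate 1. On chromosome 11 only D10 replicate 2 stood above the D3 mean. Over 684 genes of at least 1 CPM on chromosome 6 the median log2 fold change was 0.136 (0.131 after the GC and length correction), against 0.007 over all 14566. On that chromosome 249 genes were above and 29 below without overlap (36.4% and 4.24%), beside 18.7% and 15.9% over all chromosomes at this level. The median was positive in all 15 windows of 10 Mb along it, from 0.066 to 0.229. Taken relative to each gene's mean over the 8 libraries, the median was -0.009 and -0.087 in D3 replicates 1 and 2. On that scale it was 0.193 in D10 replicate 1 and -0.015 in D10 replicate 2, which thus lay between the D3 libraries. Relative to the D3 mean, it was 0.234 in D10 replicate 1 and 0.05 in D10 replicate 2, against 0 and 0.021 over all chromosomes. Relative to the D1 mean it was 0.196 and 0.032 in D8 replicates 1 and 2. On chromosome 11 (1136 genes) the median was 0.104, or 0.072 after the correction, with 0.23 in D10 replicate 2 against -0.032 in D10 replicate 1. D8 replicate 2 likewise stood at 0.227 there and D8 replicate 1 at 0.015. On chromosome 19 (464 genes) the median was 0.057, or 0.032 after the correction, with 28.2% of genes above and 10.3% below. D10 replicates 1 and 2 stood at 0.075 and 0.057 there. Chromosome 8 had the lowest autosomal median, -0.069 (-0.089 after the correction), with 116 genes above and 238 below of 798. There D10 replicate 2 stood at -0.097 and D10 replicate 1 at -0.006. Chromosome 1 was close, with a median of -0.063, replicate 2 at -0.165 and replicate 1 at 0.041.

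**Figure D5:**
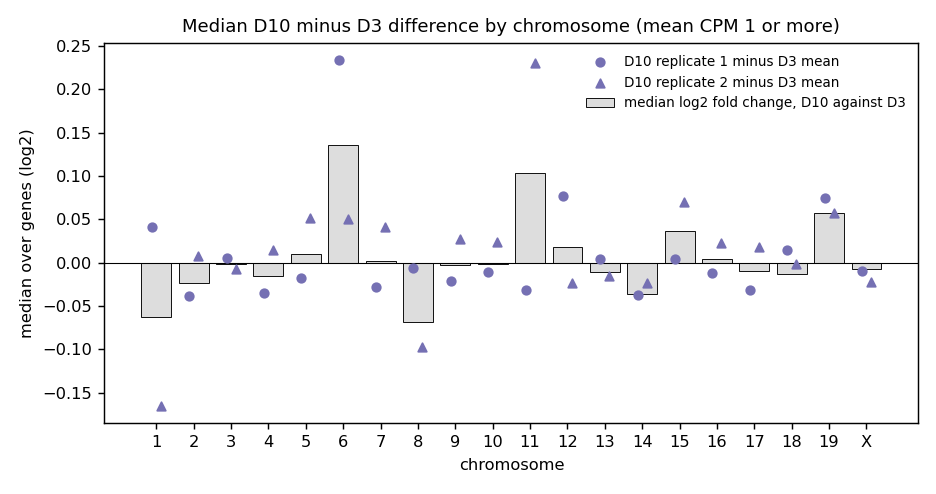
Median over genes of the log2 fold change of D10 against D3 on each autosome and the X chromosome (bars), for genes with a mean of at least 1 CPM, with the median of each D10 library minus the D3 mean (circle for replicate 1, triangle for replicate 2). Chromosome 6 stands highest at 0.136 with replicate 1 at 0.234, and on chromosome 11 replicate 2 is at 0.23 while replicate 1 is at -0.032.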

How the data were processed

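Total RNA from R1 cells was depleted of ribosomal RNA and made into stranded libraries, per the labels' protocols, although the molecule label reads polyA RNA. Per the submitters' processing notes, bcl2fastq 2.17.1.14, STAR 2.5.0a, featureCounts and the build mm10 were used. For strand, for reads with several matches and for the annotation release, the setting is not given in the sources used here, so overlapping genes and multi-copy families are less certain. The authors deposited raw counts, whole numbers of reads for each of 36920 Ensembl genes, 1438 of them without a read. Symbols and coordinates came from GENCODE M21 on GRCm38.

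Here edgeR 4.0.16 in R 4.3.3 kept 19173 genes (filterByExpr), scaled by TMM and fitted the 4 groups of 2 libraries together (4 residual degrees of freedom, 4.76 prior degrees of freedom, a biological coefficient of variation of 19.6%). An SE is the log2 fold change divided by the square root of the F statistic. Depth was 21040992 to 40835518 reads in genes, in reads that carry no molecular identifiers. DESeq2 1.42.0, RLE scaling, other low-count filters, GC and length offsets, a replicate block and leaving out each library were tried as alternatives.

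The genes and lists were chosen with earlier results of these data known. The rule named the called genes with the largest changes or, since none was called, the 6 with the smallest p in each direction, plus Atf7ip, Uba2, Sae1, Tgm2, Sox17, Nanog, Sox2, Pou5f1, Zfp352, Duxf3 and Zscan4c. Further list members were named after their values were seen. Lists were described by counts and medians, with no test of the list.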

Additional observations from a re-analysis of the deposited data

How the results depend on the processing

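The count of genes called between D10 and D3 depended on the tool and the filter. It was 0 with edgeR under RLE scaling, under a stricter filter, with GC and length offsets, with only the 4 libraries compared, and without each of the 8 libraries in turn (0 to 0). It was 373 with no low-count filter, a fit in which the prior degrees of freedom were infinite against 4.76, and 73 with DESeq2. An additive fit of treatment and time over all 8 libraries, added after the data were seen, called 97 genes, 83 higher and 14 lower on the later days, with 13 of the endoderm list higher. The cause of these shifts was not tested.

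With the replicate number as a block the D10 to D3 count was 28, all higher and 11 of them in the endoderm list, and 62 with the block and GC and length offsets together. The deviations of same-numbered libraries from their group means correlated above 0 for all 6 pairs of groups: 0.138 for D3 and D10, 0.189 for D3 and D8, 0.311 for D1 and D3, 0.361 for D1 and D8, 0.408 for D1 and D10 and 0.645 for D8 and D10. No label says what a shared number stands for, and with 2 numbers these correlations do not establish pairs.

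For D8 against D1 the count of 34 became 973 with no filter, 22 with a stricter one, 418 with DESeq2, 535 with the block, 86 with GC and length offsets, 626 with both and 3 with only its 4 libraries, and it ranged from 0 to 339 when a library was left out (339 without D8 replicate 1, 0 without either D1 library, D8 replicate 2 or D10 replicate 1). For the difference between the intervals, the count of 0 became 66 with no filter and 3 with DESeq2, and it stayed 0 to 0 when a library was left out.

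Without each D3 and D10 library in turn, also added after the data were seen, the endoderm median ranged from 0.87 to 1.64 (1.64 without D3 replicate 2), the 2-cell-like median from -1.85 to -0.46 (-0.46 without D3 replicate 1) and the naive median from -0.41 to -0.16 (-0.41 without D3 replicate 1, -0.16 without D3 replicate 2). Of the gene values under the alternatives 1492 kept their direction and side of the threshold, 133 passed it in addition and 5 changed sign. The 5 were Sae1 at -0.02 without D3 replicate 2 and -0.05 without D10 replicate 2 (range -0.05 to 0.11 over the libraries left out), Sox2 at -0.11 without D3 replicate 1 (range -0.11 to 0.34), Tgm2 at -0.15 without D10 replicate 2 (range -0.15 to 0.74), and Esrrb at 0.01 in the additive fit. The block fit was not run with the replicate numbers crossed.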

Other observations

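Among 53 imprinted genes, 12 had both D10 values above both D3 values and 7 below, beside 17.9% and 16.7% of all genes, with a median log2 fold change of 0.05. Peg10 and Sgce, paternally expressed neighbours on chromosome 6, were at 165 and 131 CPM (Peg10) and 4.93 and 7.38 CPM (Sgce) at D3, and at 188 and 280 CPM and 9.16 and 13.9 CPM at D10. Sfmbt2, an imprinted gene of chromosome 2 that is active in extraembryonic tissue, was at 8.76 and 12.3 CPM at D3 and at 16.1 and 22.8 CPM at D10. Magel2 was at 4.93 and 2.26 CPM at D3 and at 1.82 and 1.81 CPM at D10, against 0.24 to 0.32 CPM in the 4 control libraries. None of these was called by edgeR, and they were chosen after their values were seen.

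The 31 glycolysis and hypoxia genes had a median of 0.15 (0.08 after correction for GC content and length), with 8 above and 2 below, beside 17.9% and 16.7% of all genes. Hk2, which traps glucose in the cell, was at 299 and 318 CPM at D3 and at 478 and 380 CPM at D10. P4ha1, a collagen prolyl hydroxylase subunit, was at 36.4 and 33.3 CPM at D3 and at 57.6 and 91.9 CPM at D10. Bmper, a secreted BMP-binding protein, was at 1.39 and 1.99 CPM at D3 and at 3.61 and 7.65 CPM at D10, and the median over its list of 13 BMP readouts was -0.03. Of 7 Y-linked genes with at least 1 CPM, 0 were above and 2 below, beside 18.7% and 15.9% of all genes at that level. Their median was -0.502 (-0.401 after correction for GC content and length).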
